A study of Homo sapiens with 18 samples.

Results

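The genes described here set, read and remove DNA methylation, together with EZH2, the methyltransferase of Polycomb repressive complex 2. They are UHRF1, UHRF2, DNMT1, HELLS, DNMT3A, DNMT3B, TET1, TET2, TET3 and EZH2. They were chosen by name, with earlier results of these data known. Every probe set of the array annotated to exactly 1 of them was used, which gave 21 of 54675 probe sets. The 10 genes stand among 19775 genes with at least 1 such probe set.

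The target of the siRNA was ATAD2, an ATPase that binds acetylated histones through its bromodomain. It was knocked down in cells labelled Hep3B, SNU449 and PLC, which are established lines of human hepatocellular carcinoma. The lines were grown in RPMI medium and transfected with a lipid reagent, and total RNA was hybridised to Affymetrix arrays. Each line gave 3 arrays of cells that received ATAD2 siRNA and 3 of cells that received a non-targeting control siRNA, 18 in all. The sample labels call the treated samples knockouts, whereas the treatment protocol describes siRNA, so that ATAD2 was lowered and not deleted. The labels name biological replicates without saying how the cultures were separated, and no time after transfection is given in the sources used here.

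Methyl groups on CpG cytosines are copied after each round of DNA replication. UHRF1 recognises hemimethylated DNA at the replication fork and recruits DNMT1, which methylates the new strand, and HELLS is a chromatin remodeller that opens nucleosomal DNA for this step. DNMT3A and DNMT3B methylate unmethylated DNA, and the TET enzymes oxidise methylcytosine, a first step of its removal. EZH2 places methyl groups on lysine 27 of histone H3, a repressive mark that often lies at CpG islands free of DNA methylation. In many cells UHRF1, DNMT1, HELLS and EZH2 are transcribed most strongly in S phase, under the control of E2F factors.

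The marker genes of 2 lines did not match what is known of the lines named on their labels. Arrays labelled SNU449 carried the hepatocyte genes ALB (log2 signal 13.76 on control arrays), AFP (9.29) and APOA1 (12.05), and their RB1 signal was 4.44. Arrays labelled Hep3B had ALB at 3.03, AFP at 5.15 and APOA1 at 4.44, high VIM (13.31), AXL (10.81) and COL1A2 (12.42), and RB1 at 9.47. The hepatocyte gene FGB ran the other way, at 11.47 on the control arrays labelled Hep3B, 6.88 on those labelled SNU449 and 11.53 on those labelled PLC. Hep3B cells are known to make albumin and alpha-fetoprotein and to lack RB1. The arrays are therefore called by their labels throughout. "Hep3B" or "SNU449" alone below also means the arrays so labelled and not a verified cell line. Whether the labels of these 2 lines were exchanged was not tested. Each knockdown comparison lies within 1 label. The leukocyte and endothelial markers PTPRC and CDH5 lay at 2.77 to 3.66 on control arrays, and CD3E, CD14, PECAM1 and VWF lay at 4.14 to 6.89.

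ATAD2 itself was lower on the arrays with ATAD2 siRNA in each line. The change was -3.80 log2 units (13.9-fold) in the arrays labelled Hep3B, -2.39 (5.23-fold) in those labelled SNU449 and -2.62 (6.14-fold) in those labelled PLC. All 4 of its probe sets passed the test in each line, and the fold depended on the probe set, from 5.04 to 13.9 in Hep3B, 4.68 to 5.59 in SNU449 and 2.04 to 7.72 in PLC. The arrays labelled Hep3B were also those on which most genes changed. Of 19775 genes, 7.74% were lower and 8.68% higher there at an adjusted p (limma, Benjamini-Hochberg) under 0.05. The shares were 0.111% and 0.147% in SNU449 and 2.24% and 2.34% in PLC. The split into lower and higher genes depended on the scaling. The main scaling gave 1530 lower and 1717 higher genes in Hep3B, the values as deposited 1166 and 2088, and centring each array on its median 828 and 2496. In PLC these splits were 442 and 462, 658 and 347, and 736 and 215, and in SNU449 22 and 29, 15 and 36, and 13 and 74. Without PLC ATAD2 siRNA replicate 2, 1517 genes were lower and 1698 higher in PLC. The signal of 5′ minus 3′ control probes for actin and GAPDH, a measure of RNA integrity, was lower on PLC ATAD2 siRNA replicates 1 and 3 (-1.15 and -1.09 log2 units) than on replicate 2 (-0.46) and the PLC control arrays (-0.59 to -0.44). It was -0.42 on Hep3B ATAD2 siRNA replicate 2 and -0.79 to -0.65 on the other arrays labelled Hep3B.

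Promoter sequences of the S-phase genes among the members are shown because 3 of these 4 genes fell together below. They come from RefSeq (assembly GRCh38.p14), run from 120 bases before the listed start site through the first 20 transcribed bases, and read 5′ to 3′ on the strand of the gene. Capitals mark a match to TTTCCCGC, TTTGGCGC, TTTCGCGC or TTTGCCGC, words of the kind that E2F factors bind, or to the reverse complement of one of them.
UHRF1: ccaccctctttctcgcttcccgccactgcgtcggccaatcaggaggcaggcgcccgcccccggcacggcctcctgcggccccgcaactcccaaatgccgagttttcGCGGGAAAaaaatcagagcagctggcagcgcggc
HELLS: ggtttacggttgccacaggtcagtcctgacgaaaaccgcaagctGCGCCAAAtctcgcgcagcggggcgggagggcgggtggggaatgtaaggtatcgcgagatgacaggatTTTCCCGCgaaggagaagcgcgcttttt
EZH2: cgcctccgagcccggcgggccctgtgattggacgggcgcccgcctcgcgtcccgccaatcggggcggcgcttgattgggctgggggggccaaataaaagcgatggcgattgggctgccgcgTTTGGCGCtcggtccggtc
DNMT1: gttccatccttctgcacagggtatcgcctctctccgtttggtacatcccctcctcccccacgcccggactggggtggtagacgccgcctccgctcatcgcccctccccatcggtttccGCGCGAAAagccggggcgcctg

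These stretches lie at chr19:4909381-4909520 (plus strand) for UHRF1, chr10:94545668-94545807 (plus strand) for HELLS, chr7:148884272-148884411 (minus strand) for EZH2 and chr19:10194934-10195073 (minus strand) for DNMT1. Counted from the listed start, the word began at -14 in UHRF1, at -2 in DNMT1 and at 1 in EZH2, and HELLS held 2 words, at -76 and -8. All 10 members matched the RefSeq table, with 22 windows of 300 bases (250 before and 50 after each listed start). A word stood in 5 of the 7 windows of these 4 genes and in 0 of the 15 windows of UHRF2, DNMT3A, DNMT3B and the TET genes. This split follows the grouping of the genes and is a description. Its relation to the response to ATAD2 siRNA was not tested, and DNMT1, which holds a word, was not called in any line. Among all promoters listed, 3.31% of 35116 windows held 1 of the 4 words on either strand. A match is a description of the letters and not evidence of binding, and RefSeq places a gene start upstream of the listed windows for UHRF1, DNMT3B and TET3. The table also showed how the members differ in CpG content. In the 250 bases before the first listed start EZH2 held 38 CpGs, TET3 37, UHRF1 28, UHRF2 23, DNMT1 21 and HELLS 18, against a median of 10 over all genes. DNMT3A held 12, TET2 10, TET1 9 and DNMT3B 3, of which the DNMT3B window lies inside the gene.

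In the arrays labelled Hep3B UHRF1 and HELLS, which help to copy DNA methylation, and EZH2 fell with ATAD2 siRNA, and DNMT3B rose. UHRF1 fell 1.73-fold, HELLS 1.71-fold and EZH2 1.21-fold, and DNMT3B rose 1.50-fold. Called were 3 of 10 members in the lower direction and 1 in the higher direction, against 7.74% and 8.68% of all genes. Because members and the related lists below were chosen with earlier results of these data known, their counts beside these shares do not test enrichment. The median change over the 10 members was -0.08 log2 units, and over all genes it was -0.02. In SNU449 and PLC 0 of 10 members passed the limma test. Of all genes, 0.111% were lower and 0.147% higher in SNU449, and 2.24% and 2.34% in PLC. With shares this small, 0 of 10 says little about the members. At an unadjusted p under 0.05, 6 members stood out in Hep3B, 0 in SNU449 and 1 in PLC (TET2), against 5409, 2042 and 4157 of all genes.

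UHRF1, the reader of hemimethylated DNA, had log2 signals of 9.84, 9.84 and 9.73 on the control arrays labelled Hep3B and 9.06, 8.91 and 9.07 on the ATAD2 siRNA arrays. The groups did not overlap, and the gap between them was several times their spread. The change was -0.79 ± 0.08 log2 units (SE, n = 3 and 3, adjusted p = 4.46e-06 by limma). On arrays labelled SNU449 the values were 10.17, 10.21 and 10.25 for controls and 10.06, 10.24 and 10.14 with ATAD2 siRNA, and these groups overlapped (-0.07 ± 0.08, adjusted p = 0.911). On PLC arrays they were 8.97, 8.97 and 8.87 against 9.19, 8.87 and 9.21. Here ATAD2 siRNA replicates 1 and 3 lay above all controls and replicate 2 lay among them, so that the difference of 0.15 ± 0.08 did not pass (adjusted p = 0.303). Without PLC ATAD2 siRNA replicate 2 the difference was 0.26 and passed the test (adjusted p = 0.0172). With the 5′ minus 3′ measure as a covariate it was -0.02 (adjusted p = 0.939). The share of the PLC difference that moves with RNA integrity was not tested further.

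HELLS, the remodeller, was measured by 5 probe sets. The brightest read 8.71, 8.69 and 8.55 on control arrays labelled Hep3B and 7.67, 7.86 and 8.10 with ATAD2 siRNA. Every ATAD2 siRNA array lay below every control array, and the knockdown arrays spread wider than the controls. The change was -0.77 ± 0.10 (SE, n = 3 and 3, adjusted p = 2.60e-05 by limma). In the fit of every probe set, 3 further HELLS probe sets also fell, by 0.55, 0.77 and 0.54 log2 units. The fifth was dim, at 3.47 on control arrays, and its difference of 0.38 in the opposite direction did not pass (adjusted p = 0.0924). The mean of the 5 probe sets, dim one included, fell by 0.45. In SNU449 the brightest probe set read 8.95, 8.81 and 8.79 against 8.79, 8.97 and 8.83, and in PLC 7.93, 7.92 and 7.80 against 7.93, 7.79 and 8.02. Both pairs of groups overlapped.

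DNMT1, the maintenance methyltransferase that UHRF1 recruits, was not called in any line. Its signals were 9.74, 9.74 and 9.65 on control arrays labelled Hep3B and 9.57, 9.64 and 9.58 with ATAD2 siRNA. The ATAD2 siRNA values all lay just below the controls, yet the difference of -0.11 ± 0.05 did not pass (adjusted p = 0.122 by limma). Its 95% interval ran from -0.22 to -0.01, so that a fall as large as that of UHRF1 or HELLS lay outside it. In SNU449 DNMT1 read 11.04, 11.09 and 11.09 against 11.06, 10.99 and 11.06, and in PLC 9.60, 9.63 and 9.60 against 9.68, 9.63 and 9.61. UHRF2, the relative of UHRF1 that does not replace it in maintenance methylation, read 8.92, 9.08 and 9.06 against 8.88, 8.87 and 9.02 in Hep3B (-0.09 ± 0.06, adjusted p = 0.356). In PLC its ATAD2 siRNA values (7.67, 7.75 and 7.70) lay below all controls (7.90, 7.80 and 7.77) and the difference of -0.12 did not pass (adjusted p = 0.289).

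**Figure D1:**
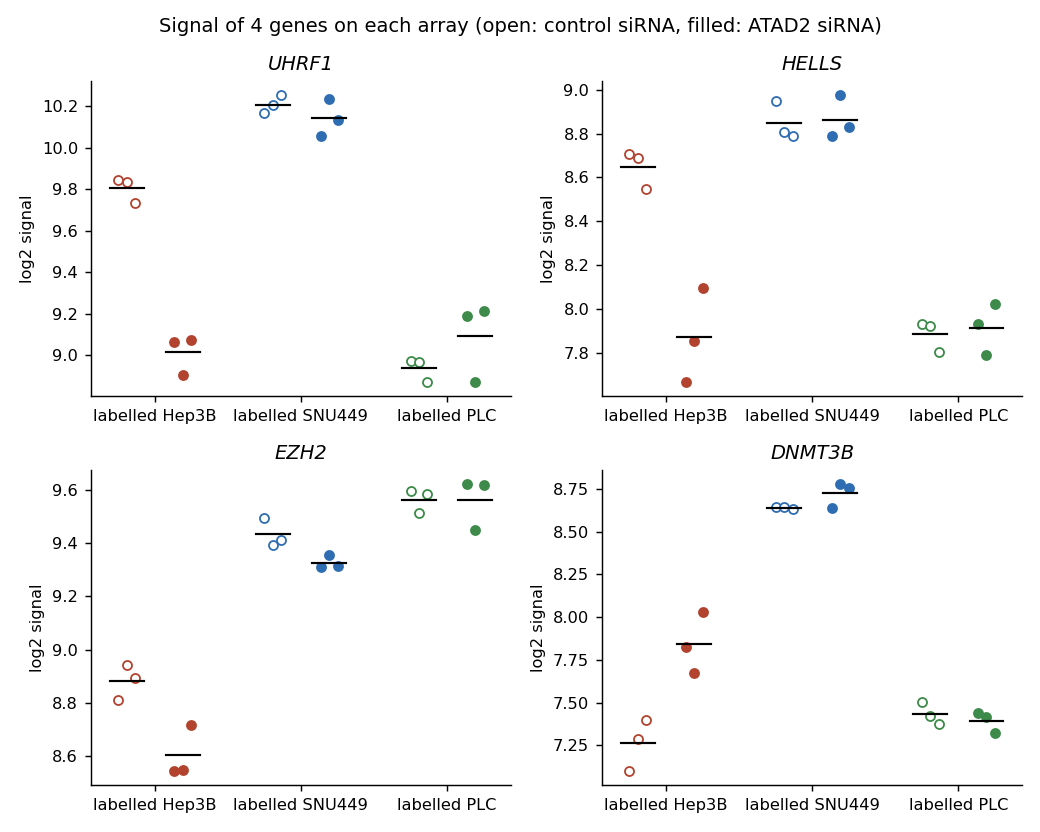
Log2 signal (y axis) of UHRF1, HELLS, EZH2 and DNMT3B on each of 18 arrays, by labelled line, with open points for control siRNA, filled points for ATAD2 siRNA and a bar for the mean of 3 arrays; each panel has its own y range. In the arrays labelled Hep3B the filled points lie below the open ones for UHRF1, HELLS and EZH2 and above them for DNMT3B, and in PLC the UHRF1 value of ATAD2 siRNA replicate 2 (8.87) lies apart from 9.19 and 9.21.

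Of the enzymes that methylate unmethylated DNA, DNMT3B passed the test and DNMT3A did not. DNMT3B had log2 signals of 7.10, 7.29 and 7.40 on control arrays labelled Hep3B and 7.82, 7.67 and 8.03 with ATAD2 siRNA. The groups did not overlap, and DNMT3B rose by 0.58 ± 0.09 log2 units (SE, n = 3 and 3, adjusted p = 0.000140 by limma). In SNU449 it read 8.64, 8.64 and 8.63 against 8.64, 8.78 and 8.76, and in PLC 7.50, 7.42 and 7.37 against 7.44, 7.42 and 7.32, with differences of 0.08 and -0.04 that did not pass (adjusted p = 0.865 and 0.840). DNMT3A, the other enzyme of this class, read 6.99, 6.84 and 6.75 against 6.87, 6.81 and 6.79 in Hep3B on its brightest probe set. Its difference there was -0.04 (95% interval -0.19 to 0.11), and those of its other probe sets were -0.12 and 0.13. None of the 3 DNMT3A probe sets passed in any line, with adjusted p of at least 0.308 (limma over all probe sets).

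The TET genes, which oxidise methylcytosine, gave no call in any line. TET3 came closest in Hep3B, with 8.04, 8.02 and 8.06 on control arrays and 8.10, 8.44 and 8.16 with ATAD2 siRNA. The ATAD2 siRNA values all lay above the controls, but the difference of 0.19 ± 0.07 did not pass (adjusted p = 0.0931 by limma). It passed without Hep3B ATAD2 siRNA replicate 1 (0.25, adjusted p = 0.0300) and in the values as deposited (0.25, adjusted p = 0.0257). Over all settings it ran from 0.03 to 0.28. The 2 other TET3 probe sets did not share the rise. Their ATAD2 siRNA arrays lay -0.13, 0.14 and 0.01 from the control mean on the brighter and -0.04, -0.21 and -0.06 on the dimmer. TET2 read 7.65, 7.84 and 7.80 against 7.79, 8.13 and 7.91 in Hep3B, a difference of 0.18 (adjusted p = 0.211). In PLC its signals were 6.47, 6.45 and 6.44 on control arrays and 6.12, 6.31 and 6.24 with ATAD2 siRNA. There the ATAD2 siRNA values all lay lower, by -0.23 ± 0.09 (adjusted p = 0.137), and the difference passed in the values as deposited (-0.31, adjusted p = 0.0468). The 2 other TET2 probe sets differed by 0.06 and 0.13 in PLC, in the opposite direction. TET1 lay at 4.68 to 5.24 in the arrays labelled Hep3B and between 7.04 and 7.27 in the arrays of both other labels, where knockdown and control arrays overlapped.

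EZH2 had log2 signals of 8.81, 8.94 and 8.89 on control arrays labelled Hep3B and 8.54, 8.55 and 8.72 with ATAD2 siRNA. The groups did not overlap, though the gap was narrower than the spread within either group, and EZH2 fell by 0.28 ± 0.06 log2 units (SE, n = 3 and 3, adjusted p = 0.00565 by limma). With each array centred on its median the fall was 0.17 and no longer passed (adjusted p = 0.0832). In SNU449 the ATAD2 siRNA arrays (9.31, 9.36 and 9.32) lay below all controls (9.50, 9.39 and 9.41), and this difference of -0.11 did not pass (adjusted p = 0.639). In PLC the values were 9.60, 9.51 and 9.58 against 9.62, 9.45 and 9.62, with a difference of 0.00 and a 95% interval from -0.14 to 0.14.

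**Figure D2:**
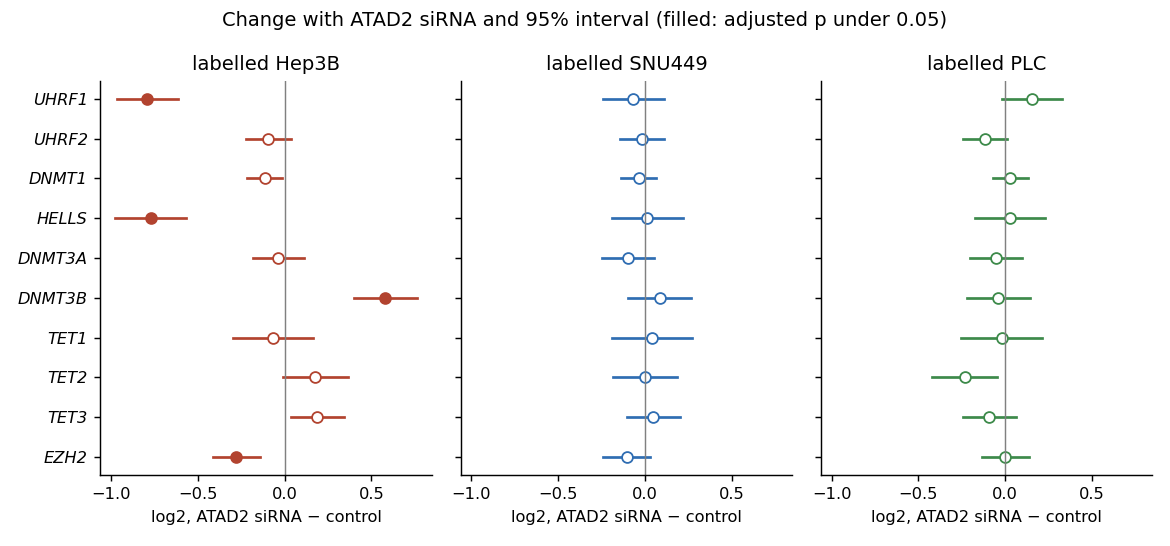
Log2 change with ATAD2 siRNA (x axis) of the 10 genes (y axis) in each labelled line, with 95% intervals from the limma fit and filled points for an adjusted p under 0.05 over all genes. UHRF1 (-0.79), HELLS (-0.77), EZH2 (-0.28) and DNMT3B (0.58) are filled in Hep3B, and no point is filled in SNU449 or PLC.

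Over all 21 probe sets 6 fell and 1 rose in Hep3B, where 8.87% of 54613 probe sets were called in either direction. The 6 were 4 of HELLS and those of UHRF1 and EZH2, and the 1 was that of DNMT3B. In SNU449 and PLC 0 of 21 were called, against 0.0439% and 3.33% of all probe sets. Without PLC ATAD2 siRNA replicate 2 the PLC counts were 1 lower (TET1, -0.55, adjusted p = 0.0457) and 1 higher (UHRF1, 0.26, adjusted p = 0.0274). In that fit knockdown in PLC cannot be told apart from the lower 5′ minus 3′ measure of the remaining ATAD2 siRNA arrays. Of the genes with several probe sets, only HELLS had any that passed with all 18 arrays. That TET1 probe set, the second of the gene, differed by -0.35 in Hep3B and -0.46 in PLC on all arrays without passing (adjusted p = 0.222 and 0.114). The main TET1 probe set differed by -0.07 and -0.02.

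**Figure D3:**
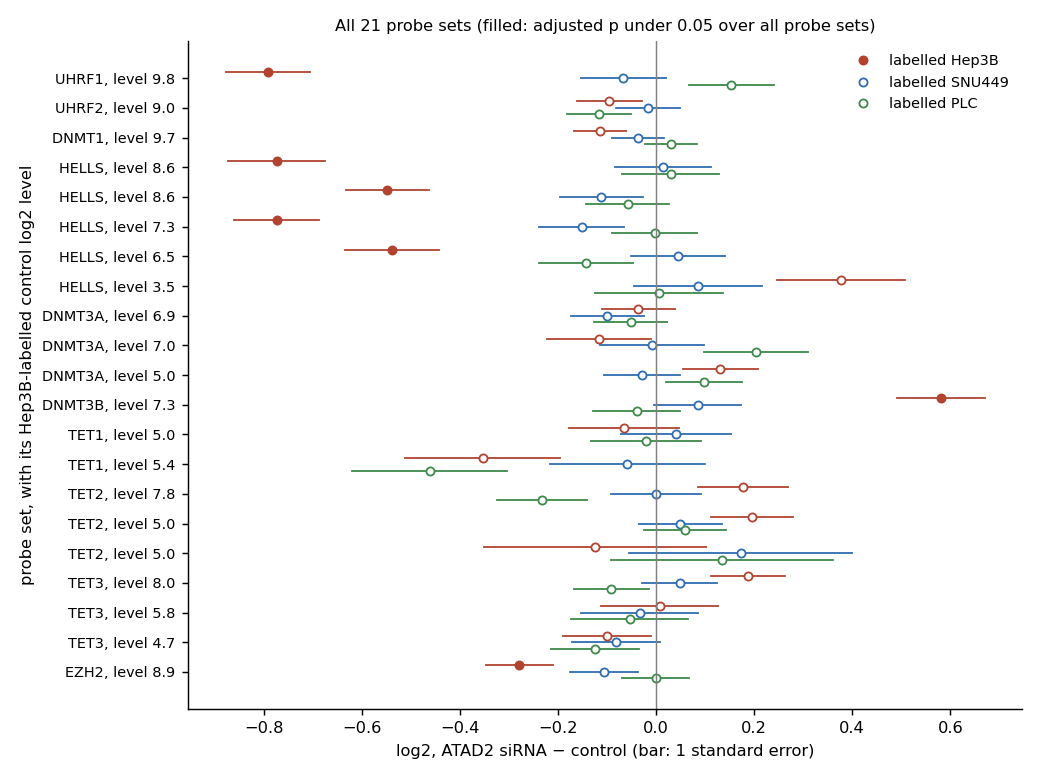
Log2 change with ATAD2 siRNA (x axis, bars of 1 standard error) of each of the 21 probe sets (y axis, by gene and by log2 level on control arrays labelled Hep3B) in the 3 labelled lines; filled points passed at an adjusted p under 0.05 over 54613 probe sets. The 4 brighter HELLS probe sets lie between -0.77 and -0.54 in Hep3B, and the dim one at 0.38 is open.

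Whether the lines responded differently was tested directly, with an F test of the interaction of line and siRNA, which 9.18% of all genes passed. UHRF1 (adjusted p = 0.000172), HELLS (0.00137) and DNMT3B (0.00755) passed. The UHRF1 change was higher than in Hep3B by 0.72 log2 units in SNU449 (adjusted p = 0.00112) and by 0.94 in PLC (0.000110). For HELLS these differences were 0.79 (0.00186) and 0.80 (0.00153), and for DNMT3B -0.50 (0.0208) and -0.62 (0.00449). Between SNU449 and PLC the responses of these 3 genes did not differ beyond their spread (adjusted p = 0.367, 0.968 and 0.647). The EZH2 response did not pass this test (adjusted p = 0.127), so that its fall in Hep3B is not shown to differ from the other lines. It passed without PLC ATAD2 siRNA replicate 2 (0.0325). The PLC ATAD2 siRNA arrays left in that fit had 5′ minus 3′ measures of -1.15 and -1.09, below those of all PLC controls. Knockdown and RNA integrity cannot be told apart in PLC there. TET2 (0.102) and TET3 (0.190) passed in the values as deposited (0.0186 and 0.0388), and DNMT1, UHRF2, DNMT3A and TET1 gave 0.336 to 0.902.

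The control arrays showed how the machinery differed between lines before any knockdown. A gene was called here at an adjusted p under 0.05 and a difference of at least 1 log2 unit, which held for 19.7% of all genes for SNU449 against Hep3B, 18.4% for PLC against Hep3B and 19.2% for SNU449 against PLC. Arrays labelled SNU449 had more signal than those labelled Hep3B for both kinds of DNA methyltransferase and for 2 TET genes. DNMT1 was 1.36 log2 units higher there (11.07 ± 0.03 against 9.71 ± 0.05, SD, n = 3 each), DNMT3A 1.86, DNMT3B 1.38, TET1 2.11 and TET3 1.32. UHRF1 (0.40) and EZH2 (0.55) were higher by less than the threshold, and UHRF2 (-0.24) and TET2 (-0.32) were lower by less than it. HELLS was 0.20 higher and did not pass (adjusted p = 0.0724 by limma). Another HELLS probe set was 0.32 higher (adjusted p = 0.00365 by limma over all probe sets). The 5 calls held under each of the other scalings, with DNMT1 at 1.19 to 1.40, while the median over all genes moved from -0.02 to 0.15 at most. The second TET1 probe set did not show the difference (-0.02), and 1 TET3 probe set was 0.44 lower.

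Comparisons with PLC rested on how the lines were scaled, because the median over all genes moved with the scaling. It lay -0.02 log2 units from Hep3B in the main scaling, -0.63 in the values as deposited and 0.62 after centring each array on its median. TET1 was higher in PLC than in Hep3B under each scaling (2.16, with a range of 1.49 to 2.74 over the others), although its second probe set was 1.16 lower. TET2 was lower in PLC under each scaling (-1.31, with -1.84 to -0.55), and all 3 of its probe sets gave that direction in the main scaling. UHRF2 was 1.19 lower in the main scaling and -0.03 after centring. Against SNU449, PLC had less DNMT1 (by 1.46), UHRF1 (1.27), DNMT3A (1.24), DNMT3B (1.21) and TET3 (1.17) in the main scaling. After centring, SNU449 minus PLC lay between -0.21 and 0.06 for these 5 genes, so that both size and direction rested on the scaling.

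In the main scaling the order of the control arrays was SNU449, Hep3B, PLC for UHRF1 (10.21, 9.80 and 8.94) and HELLS (8.85, 8.65 and 7.89). The first and second of HELLS did not overlap, yet their difference did not pass. DNMT1 (11.07, 9.71 and 9.61) was highest in SNU449, and its difference between Hep3B and PLC did not pass (adjusted p = 0.0703 by limma). DNMT3B (8.64, then 7.43 in PLC and 7.26 in Hep3B, adjusted p = 0.0831) and TET3 (9.36, then 8.19 and 8.04, 0.0788) had the same pattern. For DNMT1 and TET3 the Hep3B and PLC control arrays did not overlap, so a small difference is not excluded. EZH2 was lowest in Hep3B (8.88). Its difference between SNU449 (9.43) and PLC (9.56) did not pass (adjusted p = 0.0760 by limma), though these arrays did not overlap. UHRF2 (9.02, 8.78 and 7.82) and TET2 (7.77, 7.45 and 6.46) ran from Hep3B through SNU449 to PLC. TET1 was lowest in Hep3B (4.99), and the arrays of SNU449 (7.09) and PLC (7.14) overlapped (adjusted p = 0.697 by limma). DNMT3A ran from SNU449 (8.72) through PLC (7.48) to Hep3B (6.86). Its second probe set had PLC 0.40 below Hep3B.

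**Figure D4:**
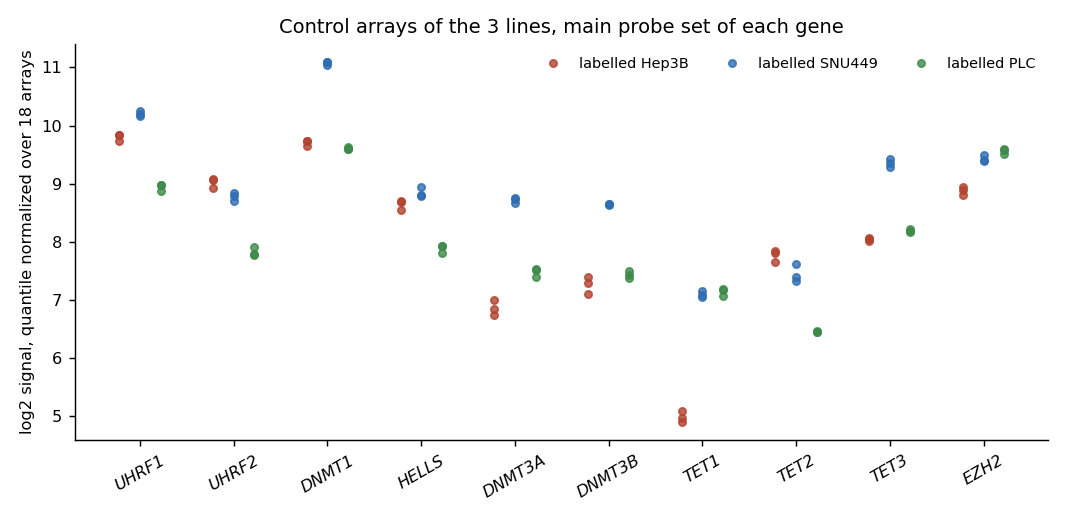
Log2 signal (y axis, quantile normalized over 18 arrays) of the main probe set of each gene (x axis) on the 3 control arrays of each labelled line, 1 point per array; levels of different genes are not comparable. DNMT1, DNMT3A, DNMT3B and TET3 are highest in the arrays labelled SNU449, and TET1 lies near 5 in Hep3B and near 7 in the other 2 lines.

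Some partners of maintenance methylation fell in Hep3B. Of 9 measured partners 4 were called lower and 0 higher, against 7.74% and 8.68% of all genes, and 8 lay below 0, with a median of -0.11 log2 units against -0.02 over all genes. CDCA7, which recruits HELLS to chromatin, fell by 0.54 on its main probe set, and its second differed by -0.09 without passing (adjusted p = 0.826). LIG1, the ligase that joins Okazaki fragments and is bound by UHRF1, fell by 0.43. The replication clamp PCNA fell by 0.37 and TRIM28, a corepressor, by 0.17, and USP7, CDCA7L, ZBTB24, PCLAF and ZFP57 did not pass. The TRIM28 call was lost without any of 5 of the 6 arrays labelled Hep3B and the other 3 calls were kept under all 25 settings tried. In PLC CDCA7 also fell on its main probe set, by 0.29 (adjusted p = 0.0324), a call that was lost without any of the 3 PLC control arrays or ATAD2 siRNA replicate 1, and its second probe set differed by 0.10. In SNU449 0 of the 9 partners were called, where 0.111% of all genes were lower and 0.147% higher.

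Genes of DNA replication fell broadly in the same arrays. Of 22 S-phase genes 16 were called lower and 0 higher in Hep3B, against 7.74% and 8.68% of all genes, and all 22 lay below 0, with a median of -0.29 against -0.02 over all genes. E2F2, a factor that drives S-phase transcription, fell by 0.48 and CCNE1, the cyclin of S-phase entry, by 0.45, each on its main probe set. Other probe sets of E2F2 (-0.165 and -0.04) and of CCNE1 (-0.16) did not pass. CHAF1B, a histone chaperone subunit of the replication fork, fell by 0.40 and the helicase subunit MCM2 by 0.39. The count of S-phase genes called lower was 9 in the values as deposited and 6 after centring each array on its median. It was 14 without Hep3B ATAD2 siRNA replicate 2. Of 8 other proliferation markers 1 was called in each direction. TOP2A fell by 0.43, a call lost without Hep3B control replicate 1 or ATAD2 siRNA replicate 2, and MKI67 rose by 0.43 on its main probe set, a call lost without control replicate 3. Another MKI67 probe set also rose, and its remaining 2 differed by -0.26 and -0.24 without passing. AURKA, BIRC5, CCNA2, CCNB1, CDK1 and PLK1 lay between -0.26 and 0.05. In SNU449 0 of 22 S-phase genes were called, where 0.111% of all genes were lower and 0.147% higher. In PLC, where these shares were 2.24% and 2.34%, 2 were called lower, MCM2 (-0.32) and MCM4 (-0.29). The MCM4 call was lost in 17 of 25 settings, and the MCM2 call with the 5′ minus 3′ covariate. The part of the S-phase drop in Hep3B in the changes of UHRF1, HELLS and EZH2 was not tested.

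Of 10 further measured genes of methylcytosine turnover 2 were lower and 1 higher in Hep3B, against 7.74% and 8.68% of all genes. GADD45B, a stress-response gene linked to demethylation, fell by 0.99. TDG, the glycosylase that cuts out the oxidised bases made by TET enzymes, fell by 0.78, and both of its probe sets gave nearly the same value. MBD4, a glycosylase for the T of a T:G mismatch at methylated CpGs, rose by 0.38. TDG was also lower in PLC, by 0.30 (adjusted p = 0.0162), a call lost without PLC control replicate 2 and with the 5′ minus 3′ covariate, and its second probe set differed by 0.10 there. Of 8 methyl-CpG readers 2 rose in Hep3B and 0 fell, against 8.68% and 7.74% of all genes. They were MBD6 (0.57) and MBD2 (0.21), each on 1 of its several probe sets, and in PLC ZBTB4 rose by 0.37, a call lost without ATAD2 siRNA replicate 1.

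Of 13 measured subunits and accessory proteins of Polycomb repressive complex 2 besides EZH2, 2 were lower and 1 higher in Hep3B, against 7.74% and 8.68% of all genes, with a median of 0.03. EED, the core subunit that binds the methylated histone, fell by 0.31 and RBBP4, a histone-binding subunit, by 0.29. Each had a probe set on the other side of 0 that did not pass (0.05 and 0.23), and both calls were lost only after centring each array on its median among the 25 settings. PHF19, an accessory protein that guides the complex to chromatin, rose by 0.31 on its brightest probe set, while another of its 3 probe sets passed in the opposite direction. SUZ12, the remaining core subunit, differed by 0.14 in Hep3B (adjusted p = 0.177) and was higher by 0.25 in PLC (adjusted p = 0.0363), a call lost in 12 of 25 settings. The counts of the next lists stand against the same shares. Of 15 genes of H3K27 demethylation and Polycomb repressive complex 1, 2 were lower in Hep3B, CBX2 by 0.30 and PCGF1 by 0.23. The CBX2 call was lost in the values as deposited and after centring each array on its median, and the PCGF1 call in 20 of 25 settings. Of 12 genes of H3K9 methylation CBX5, which encodes HP1 alpha, fell by 0.53 and the methyltransferase SUV39H2 by 0.24, with 0 called higher. The CBX5 call was lost without Hep3B control replicate 1 or ATAD2 siRNA replicate 1 or 3, and the SUV39H2 call without the first or second of these. The SUV39H2 call was also lost in the values as deposited and after centring.

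Genes that supply or compete for methyl groups moved in both directions. Of 15 measured genes of the methyl donor cycle 4 fell and 2 rose in Hep3B, against 7.74% and 8.68% of all genes. The count of these genes called lower in Hep3B was 1 in the values as deposited. After centring each array on its median, 1 was lower and 3 were higher in Hep3B. NNMT, which spends S-adenosylmethionine on nicotinamide, rose by 0.73 there and by 0.42 in PLC (adjusted p = 0.0280, a call lost without any of 4 PLC arrays). MTHFD2, a mitochondrial folate enzyme, fell by 0.66. MTR, methionine synthase, rose by 0.29, a call lost without Hep3B control replicate 2 or ATAD2 siRNA replicate 3, and its second probe set passed in the opposite direction. MAT2B, a regulatory subunit of methionine adenosyltransferase, fell by 0.23. That call was lost without Hep3B ATAD2 siRNA replicate 1, in the values as deposited and after centring. SHMT2, which passes one-carbon units from serine to folate, rose by 0.33 in PLC, a call lost without any of 3 PLC arrays. Of 5 genes that set the level of 2-oxoglutarate, the cosubstrate of TET enzymes, IDH3A rose by 0.26, IDH1 rose by 0.19 and IDH2 fell by 0.16 in Hep3B. The IDH2 call was lost in 13 of 25 settings, and that of IDH1 without Hep3B control replicate 1 or 3. Across the related lists, 42 genes were called in Hep3B, where 7.74% of all genes were lower and 8.68% higher. PCNA and TYMS, each on more than 1 list, were counted once. Of the 42 genes, 35 had several probe sets. For 13 of these at least 1 probe set lay on the other side of 0, and for 2 (PHF19 and MTR) such a probe set passed. In PLC 10 list genes were called, where 2.24% of all genes were lower and 2.34% higher. Each of these 10 calls was lost with the 5′ minus 3′ measure as a covariate. With that covariate 223 of all genes were lower and 158 higher in PLC. The share of these changes that moves with RNA integrity was not tested. Of these 10 genes, 7 had several probe sets. For 5 of the 7 at least 1 probe set lay on the other side of 0 (CDCA7, TDG, SUZ12, NNMT and SHMT2), none of which passed.

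Genes whose silencing is a usual readout of this machinery mostly did not pass the test. Of 18 measured germline genes with methylated promoters in somatic cells, 0 passed the limma test in Hep3B. Of all genes, 7.74% were lower and 8.68% higher there. On its control arrays MAGEA1 was at 9.93 and the others at 2.40 to 5.15. In PLC, where 2.24% of all genes were lower and 2.34% higher, DAZL (0.40) and DDX4 (-0.44) passed. Their levels on control arrays were 3.03 and 3.65, and both calls were lost in the values as deposited. Of 9 measured Polycomb target genes, DLK1 fell by 0.85 in Hep3B and the others did not pass. The second DLK1 probe set differed by -0.01 (adjusted p = 0.986). CDKN2A, a classical target of EZH2, lay at 5.40 and differed by -0.18 there.

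**Figure D5:**
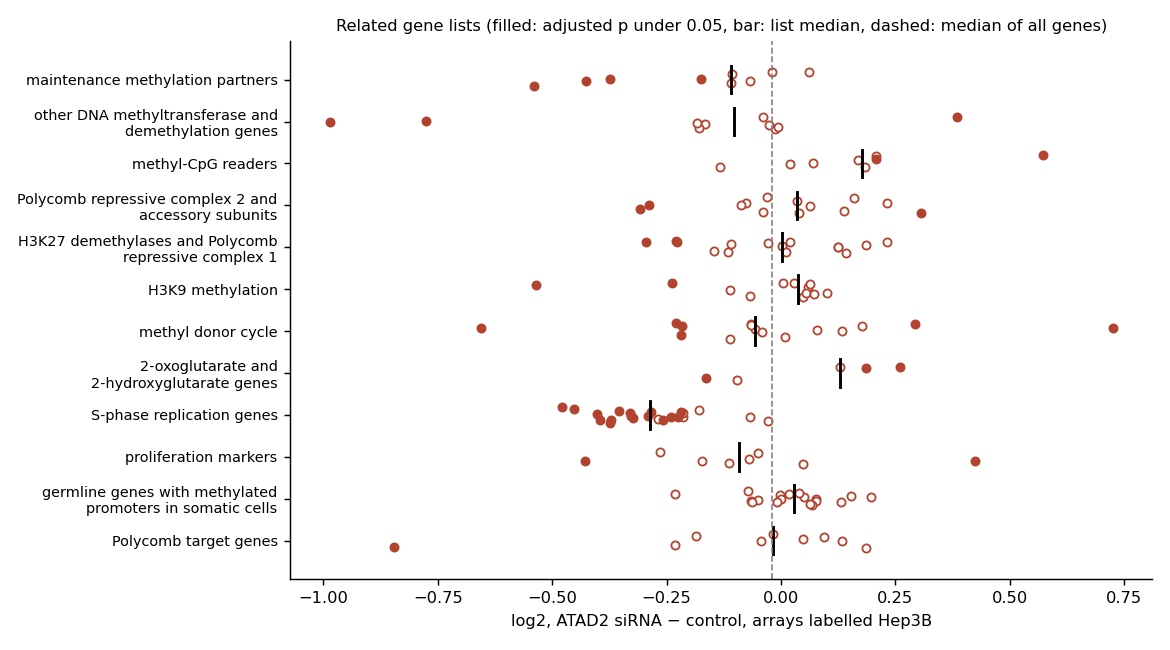
Log2 change with ATAD2 siRNA (x axis) of each gene of 12 related lists (y axis) in the arrays labelled Hep3B, with filled points for an adjusted p under 0.05, a black bar for the list median and a dashed line for the median of all genes (-0.02). The S-phase genes all lie below 0 with a median of -0.29, and the other lists spread to both sides of 0.

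Some of the members also varied together across the arrays. After the mean of each line was subtracted, Pearson's r over the 18 arrays was 0.92 between UHRF1 and HELLS, 0.84 between UHRF1 and EZH2 and 0.86 between HELLS and EZH2. DNMT3B ran against them, with r of -0.80 to UHRF1 and -0.81 to DNMT1. TET2 and TET3 gave 0.72, while other pairs lay near 0, such as UHRF2 and DNMT1 (-0.04) and DNMT3A and HELLS (0.09). These values carry the shift of the Hep3B knockdown arrays, which all genes changed there share, and are given as a description. Among genes brighter than the median, the closest to UHRF1 were LIG1 (0.96), SPC24 (0.95), a kinetochore subunit, and MDC1 (0.95), a mediator of the DNA damage response. For HELLS they were NDFIP2 (0.95), RNF168 (0.95) and BRI3BP (0.95), for EZH2 CYCS (0.94), SLC4A7 (0.93) and FKBP3 (0.93), and for DNMT1 GATD1 (0.90), CABLES1 (0.89) and POLR2L (0.89).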

How the data were processed

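The deposited table holds log2 values of 54675 probe sets on 18 arrays, a scale judged from their range of 1.33 to 14.0; which background correction and normalization the authors used is not given in the sources used here. The submitters' processing notes name limma. Sorted columns differed by at most 0.156 within a line and 1.51 over all arrays, so columns were quantile normalized over all arrays. Each gene was represented by its brightest probe set with a single annotated gene (41097 of 54675; 1801 had several genes, 11777 none), under current RefSeq symbols. A limma model (limma 3.58.1, R 4.3.3) with 6 group means was fitted to all 19775 genes (12 residual and 4.01 prior degrees of freedom), and to 54613 probe sets without array controls. P-values were two-sided, Benjamini-Hochberg adjusted over all genes or probe sets. An exact permutation test of 3 against 3 cannot go below p = 0.1 and was not used. The procedure was tested on simulated data.

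Members and related lists were chosen with earlier results of these data known. Of each list, up to 4 called genes per line with the largest change were named, with the 3 genes nearest to UHRF1, DNMT1, HELLS and EZH2; AURKA, BIRC5, CCNA2, CCNB1, CDK1, PLK1, MAGEA1 and CDKN2A were named after their values were seen. Alternatives were other scalings, probe set rules, filters, weights, a 5′ minus 3′ covariate, a replicate block, stricter or looser thresholds and leaving out each array.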

Additional observations from a re-analysis of the deposited data

Results flagged for a closer look

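The responses of 3 genes to ATAD2 siRNA differed between lines by an interaction test adjusted over all genes. UHRF1 (adjusted p = 0.000172 by limma) changed by -0.79 log2 units in the arrays labelled Hep3B, -0.07 in SNU449 and 0.15 in PLC. HELLS (adjusted p = 0.00137) changed by -0.77, 0.01 and 0.03, and DNMT3B (adjusted p = 0.00755) by 0.58, 0.08 and -0.04. Each passed under all of the 29 other settings in which the interaction was refitted.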

How the results depend on the processing

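Of 1220 values of single members under 32 settings, 1191 were counted as the same, 15 newly passed, 1 no longer passed, 13 moved without a call and 0 reversed. Values counted as the same kept their side of the threshold, but some small differences that did not pass changed sign. The HELLS difference in PLC, 0.03 in the main fit, reached -0.05. The changes of UHRF1, HELLS and DNMT3B in Hep3B passed in every setting. The number of members called higher in Hep3B was 2 in the values as deposited, after centring each array on its median and without the dimmest 50% of genes, with TET3 added, and 1 to 2 over the fits that left out 1 array. Members called lower in PLC numbered 1 (TET2) in the values as deposited, after quantile normalization within each line and after centring. Members called higher in PLC numbered 0 to 1 when 1 array was left out. Members whose response differed between lines numbered 5 in the values as deposited and after centring. Between SNU449 and PLC control arrays, 8 members differed in the values as deposited, after quantile normalization within each line and at a threshold of 0.5 log2 units, and 1 after centring. Between PLC and Hep3B it was 6 after centring and 7 at 0.5 log2 units. The cause of these shifts was not tested.

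Over the settings tried, called genes among all genes numbered 828 to 1908 lower and 1299 to 2496 higher for Hep3B (1530 and 1717 as reported), 5 to 267 and 3 to 237 for SNU449 (22 and 29), and 12 to 1517 and 3 to 1698 for PLC (442 and 462). The PLC extremes were each line fitted by itself and leaving out ATAD2 siRNA replicate 2, and the upper SNU449 ones came with array weights. Over all lines, the deviations of same-numbered arrays correlated at -0.12 to 0.09, and those of differently numbered arrays at -0.12 to 0.09. In PLC same-numbered arrays gave 0.06 to 0.09 and the others -0.08 to 0.00. Whether equal replicate numbers pair the arrays is therefore not settled. With a replicate block 3 members were lower and 1 higher in Hep3B, UHRF1 at -0.79 (adjusted p = 0.000258), and over all genes the block gave 1216 lower and 1435 higher for Hep3B, 5 and 3 for SNU449, and 233 and 207 for PLC. The fold change of dim probe sets, such as those of most germline genes, is understated. List counts and the fit of every probe set under other settings were added after the data were seen.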
